A study of Mus musculus with 14 samples.

Results

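Sperm draw several glycolytic enzymes from genes used mainly in the male germ line. The 9 sperm glycolysis isozyme genes described here along a purification of the chromatoid body from mouse testis are Pgk2, Gapdhs, Ldhc, Ldhal6b, Aldoart1, Aldoart2, Hk1, Gpi1 and Gk2, taken from a list of names and not by a threshold on their values. Hk1 and Gpi1 are also expressed in other tissues. All 9 were found by symbol among 21905 genes in a joint table of 5 conditions, and 9 of 9 passed a filter of a mean of 1 FPKM in each comparison within that table. FPKM counts fragments relative to transcript length and library size, so levels of genes can be compared within a condition.

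RNA came from testes of C57BL/6 mice at least 6 weeks old. Tubule cells were crosslinked with formaldehyde and sonicated (lysate), then spun to part supernatant from pellet1, sonicated and spun again to give pellet2, and immunoprecipitated with an antibody to MVH, the germ cell helicase that marks the chromatoid body (MVH IP). That order is the protocol's; the sample types in the labels instead name lysate as the source of the IPs, so which of the 2 was the input is uncertain. Of 14 libraries in 9 groups, lysate, supernatant, pellet1 and pellet2 had 1 each and MVH IP 3. Sorted round spermatids had 2, of which 1 was from RNA above 500 bp, and round spermatids labelled hetMIWI had 1, of a strain given only as C57BL/6; the control IgG and ACR (acrosin) IPs were not analysed here, so what the MVH antibody brought down cannot be told apart from carry-over.

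Every condition has 1 deposited value per gene. There is therefore no SD and no test over samples, and sequencing depth is unknown. Calls rest on size alone: a gene counts as higher or lower past 2-fold on the log2(FPKM + 1) scale. In these bulk samples fewer cells of a type and less RNA per cell cannot be told apart. Markers were checked against the labels. The sorted cells listed 10 of 10 round spermatid markers, with 0 of 10 Sertoli, 0 of 6 Leydig and 0 of 8 spermatogonial markers at the 5 FPKM floor of that table. The cells labelled hetMIWI listed 7 of 10 and 0 of those other markers. Lysate, scaled apart with the same floor, listed 10 of 10 round spermatid, 3 of 10 Sertoli, 4 of 6 Leydig and 0 of 8 spermatogonial markers. The round spermatid and spermatogonial counts therefore do not set the sorted cells apart from lysate. Pachytene spermatocyte markers were also present, 6 of 9 in the sorted cells (summed FPKM 305) and 5 of 9 in the cells labelled hetMIWI (525), against 8 of 9 in the separate lysate table (394). Hspa2 alone held 257 of that sum in the sorted cells, 481 in the cells labelled hetMIWI and 200 in lysate. Every other pachytene marker listed in the sorted cells was lower there than in lysate. In the cells labelled hetMIWI the same held except for Spo11 (17.8 against 16.0 FPKM). The round spermatid markers summed to 7577 FPKM in the sorted cells, 6103 in those labelled hetMIWI and 17677 in lysate, in tables scaled apart.

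As background, glycolysis splits glucose into pyruvate and yields ATP, and sperm run it along the principal piece of the tail, where several of the enzymes are bound to the fibrous sheath. Retroposed or duplicated isozyme genes are expressed in meiotic and haploid germ cells, and their mRNAs are made before transcription stops and translated later. Deletion of Gapdhs, Pgk2 or Ldhc in mice impairs sperm motility.

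The members fall into the steps of the pathway. Hk1 encodes hexokinase, which phosphorylates glucose, and Gpi1 the isomerase of the next step. Aldoart1 and Aldoart2 are aldolase A retrogenes, and aldolase splits the sugar into its 3-carbon products. Gapdhs encodes the sperm form of glyceraldehyde-3-phosphate dehydrogenase and Pgk2 the germ cell phosphoglycerate kinase. Ldhc and Ldhal6b encode lactate dehydrogenases, which turn pyruvate into lactate. Gk2 encodes a testis glycerol kinase, which brings glycerol toward the pathway.

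In mm9 the spliced members were annotated at chr7:31514906-31524375 (Gapdhs), chr7:54116633-54133512 (Ldhc), chr7:34986346-35015324 (Gpi1) and chr10:61731603-61842656 (Hk1). The others were at chr17:40343963-40345554 (Pgk2), chr4:72511617-72513668 (Aldoart1), chr12:56666122-56667696 (Aldoart2), chr5:97884180-97886027 (Gk2) and chr17:5410864-5440260 (Ldhal6b). In the GENCODE annotation of GRCm38, Pgk2, Ldhal6b, Aldoart1, Aldoart2 and Gk2 have 1 exon, Ldhc has 8, Gapdhs 11 and Hk1 and Gpi1 18 each. The file gives Ldhal6b a 29397-base locus that it shares with 5730437N04Rik, a synonym of Tmem242 in RefSeq, although the Ldhal6b transcript of that annotation is 1445 bases. The sources used here do not give whether reads were counted by strand, so overlapping genes could not be told apart.

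Uniqueness of sequence differs between members and bears on how their reads could be counted. Of all 36-base words of a transcript, 0% of those of Pgk2 and Ldhc occur in another gene's transcripts, and 2.22% of Gk2, 2.88% of Hk1, 5.67% of Aldoart2 and 6.47% of Gapdhs do. Aldoart1 shares 13.5% of its words, 8.23% with Aldoa, the somatic aldolase from which it derives. Gpi1 shares 33.3% of its words, and 26.1% of its words lie in the gene Gm1840, and every Ldhal6b word also lies in the annotated gene Gm29050. With words of 75 bases the shares were 0.961% for Aldoart1, 0% for Aldoart2 and 14.8% for Gpi1, and still 100% for Ldhal6b. The values of Gpi1 and Ldhal6b are uncertain at either length, and how far those of Aldoart1 are depends on it.

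Promoter sequence is shown for members whose values moved most alike, and for Ldhc, the most abundant. Each line gives the 150 bases upstream of a RefSeq transcription start in GRCm38.p6, with copies of TGACNTCA, or in Ldhc of TGACG, in capitals. Both are forms or parts of the cyclic AMP response element, the binding motif of CREM, a transcription factor of round spermatids. The full element, TGACGTCA, had 0 copies within 250 bases upstream of any member start, where 1.55% of 32851 promoters held it. The motifs were chosen after the sequences had been seen.

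Gapdhs start 1 (chr7:30743682-30743831, minus strand): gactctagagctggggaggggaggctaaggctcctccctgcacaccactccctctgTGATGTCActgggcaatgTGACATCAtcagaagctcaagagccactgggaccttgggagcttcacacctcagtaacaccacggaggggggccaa
Hk1 start 1 (chr10:62379909-62380058, minus strand): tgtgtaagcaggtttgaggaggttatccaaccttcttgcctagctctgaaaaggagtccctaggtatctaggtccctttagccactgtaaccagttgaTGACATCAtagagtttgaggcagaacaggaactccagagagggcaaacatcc
Ldhc start 1 (chr7:46861113-46861262, plus strand): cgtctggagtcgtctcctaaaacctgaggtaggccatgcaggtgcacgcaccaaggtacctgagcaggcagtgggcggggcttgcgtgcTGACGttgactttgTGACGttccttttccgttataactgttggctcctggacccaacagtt
Pgk2 start 1 (chr17:40208610-40208759, minus strand): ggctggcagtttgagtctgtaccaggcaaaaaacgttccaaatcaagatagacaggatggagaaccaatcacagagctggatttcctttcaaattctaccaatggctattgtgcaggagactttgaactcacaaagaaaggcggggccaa
Gk2 start 1 (chr5:97457024-97457173, minus strand): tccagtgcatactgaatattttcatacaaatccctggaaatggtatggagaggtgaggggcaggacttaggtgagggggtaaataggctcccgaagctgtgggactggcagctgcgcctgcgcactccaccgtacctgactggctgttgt

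Gapdhs start 1 holds 2 copies of TGACNTCA, 86 and 68 bases before the start, and Hk1 start 1 holds 1 copy, 44 bases before it. A second Gapdhs start also holds 2 copies. Ldhc start 1 holds 2 copies of TGACG, 56 and 42 bases before the start. In windows of the same length, TGACNTCA was present on either strand in 5.70% of 32851 RefSeq promoters and TGACG in 13.3%, counts that overlap since TGACG is part of some TGACNTCA copies. Neither motif was found in the windows of Pgk2, Gk2, Ldhal6b, Aldoart2 or Gpi1, or of the second starts of Hk1 and Ldhc. These matches are descriptions of letters. The 8 matched members were taken from RefSeq by symbol, and Aldoart1 had no entry.

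Ldhc led the members in all 5 conditions by a wide margin. It was at 3496 FPKM in lysate and 3338 in supernatant, at 1505 and 1560.2 in the first and second pellets, and at 2536 in MVH IP, and ranked 59th of all genes in lysate and 60th in MVH IP. It held 57.4% of the members' summed FPKM in lysate (6088) and 56.8% in MVH IP (4468), but 47.4% in pellet1 and 46.6% in pellet2. Both pellets were below lysate, supernatant and MVH IP.

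Hk1 came second in every condition, at 661, 704, 409, 482 and 359.9 FPKM in lysate, supernatant, pellet1, pellet2 and MVH IP. Gapdhs followed in the first 4 conditions, at 570.05, 530.4, 356 and 415, and was at 334 in MVH IP. MVH IP was the lowest of the 5 for both genes, whereas Ldhc was lowest in pellet1. Pgk2 was at 460.1, 453, 269, 239 and 348 FPKM, with both pellets low and MVH IP between pellet and lysate. It exceeded Gapdhs in MVH IP alone of the 5 conditions, at 348 against 334. The separate MVH IP table gives the reverse, 286 for Pgk2 and 412 for Gapdhs.

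Gk2 was at 324, 330.2, 179, 179 and 227 FPKM, a profile close to that of Pgk2. Ldhal6b was at 310.1, 293, 169, 247 and 275, lowest in pellet1. The aldolase retrogenes and Gpi1 were the least abundant in the first 4 conditions, and in MVH IP Aldoart2 stood just above Gk2. Aldoart2 was at 112, 114, 151, 122 and 231 FPKM, highest in MVH IP. Aldoart1 was at 62.3, 59.1, 64.7, 40.5 and 86.8, also highest in MVH IP. Gpi1 was at 92.1, 89.9, 71.9, 63.2 and 69.6 FPKM, highest in lysate.

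**Figure D1:**
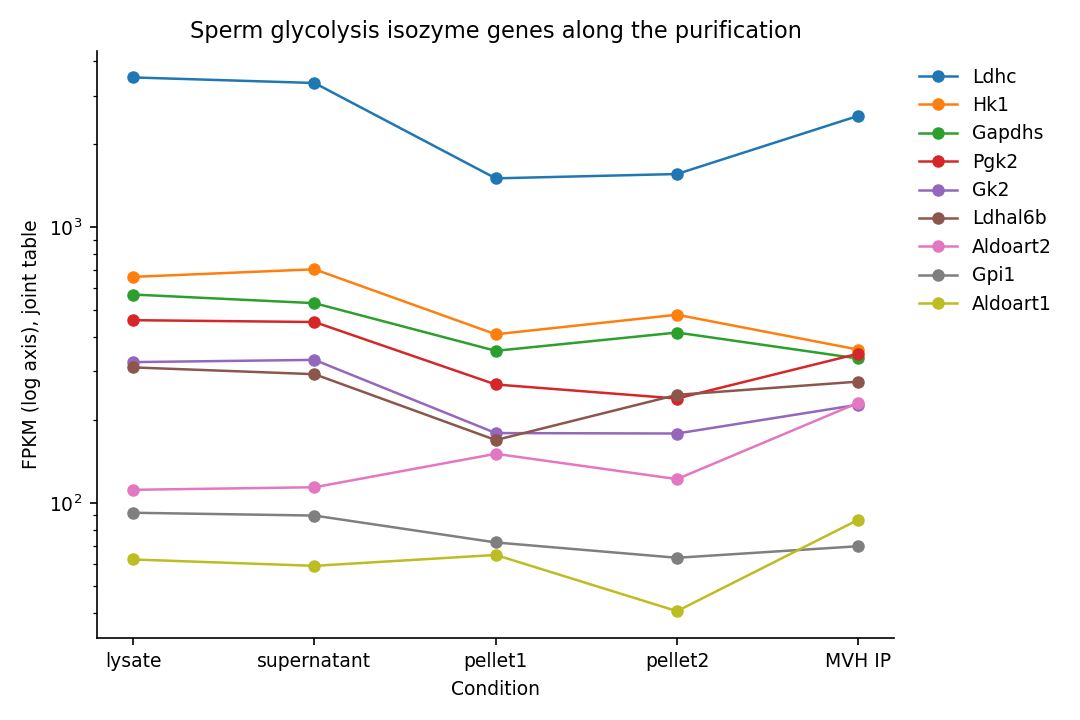
FPKM of the 9 members (log axis) in the 5 conditions of the joint table, 1 deposited value per point, with lines joining conditions of a gene. Ldhc lies above the rest in every condition, at 3496 FPKM in lysate and 2536 in MVH IP, while Aldoart2 and Aldoart1 are highest in MVH IP.

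In supernatant the members' FPKM stood at the level of the whole lysate. FPKM is relative to each library, so how much RNA the first spin left in supernatant is not known. The log2 ratios to lysate ran from -0.10 (Gapdhs) to 0.09 (Hk1), and 0 of 9 members passed 2-fold in either direction, where 0.751% of 12777 genes were higher and 1.46% lower. Gk2 and Aldoart2 were both at 0.03 and Pgk2 at -0.02.

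In pellet1 most members had a lower FPKM than in lysate. Ldhc was 2.32-fold lower (log2 ratio -1.22) and was the 1 member past 2-fold, where 9.41% of 12904 genes were lower; 0 were higher, against 16.8%. The next lowest were Ldhal6b at -0.87, Gk2 at -0.85 and Pgk2 at -0.77. Aldoart2 and Aldoart1 stood above 0, at 0.43 and 0.05, while the other members with 1 exon were below it. The median of the members was -0.69, and that of all genes 0.07.

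Pellet2 was alike for the abundant members. Ldhc was 2.24-fold lower (log2 -1.16), again the 1 member past 2-fold, where 7.21% of 12941 genes were lower and 12.5% higher. Pgk2 was at -0.94 and Gk2 at -0.86, near the threshold. Hk1 and Gapdhs were both at -0.46, and Aldoart2 alone was above 0, at 0.13. The members' median was -0.54, against 0.08 for all genes. Centred on that median, 0 members were 2-fold higher and 2 lower, where 10.8% and 8.51% of genes were.

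Between the pellets the members differed little. The log2 ratios of pellet2 to pellet1 lay between -0.66 (Aldoart1, 40.5 against 64.7 FPKM) and 0.54 (Ldhal6b, 247 against 169), with 0 of 9 past 2-fold, where 5.94% of 12832 genes were higher and 6.67% lower. Ldhc was at 0.05 and Gk2 at -0.01.

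MVH IP against lysate compares RNA recovered with the MVH antibody, any carry-over included, with that of lysate. Of the 9 members, Aldoart2 was 2.06-fold higher (231 against 112 FPKM, log2 1.04) and was the only call. Aldoart1 was at 0.47, below 2-fold. The other 7 were below lysate: Hk1 at -0.87, Gapdhs at -0.77, Gk2 at -0.51, Ldhc at -0.46, Pgk2 at -0.40, Gpi1 at -0.40 and Ldhal6b at -0.17. Of 13855 genes 47.3% were higher and 7.53% lower, and their median was 0.92, against -0.40 for the members.

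Set against that median, 8 of 9 members lay below it. Hk1 had 8.38% of genes below its ratio and Aldoart2 54.0%. After centring on the median of all genes, 0 members were 2-fold higher and 7 lower, where 18.7% and 20.6% of genes were, so whether a member is called lower depends on the scaling. The 5 members with 1 exon ranged from -0.51 to 1.04 and the 4 with several from -0.87 to -0.40, which overlap.

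**Figure D2:**
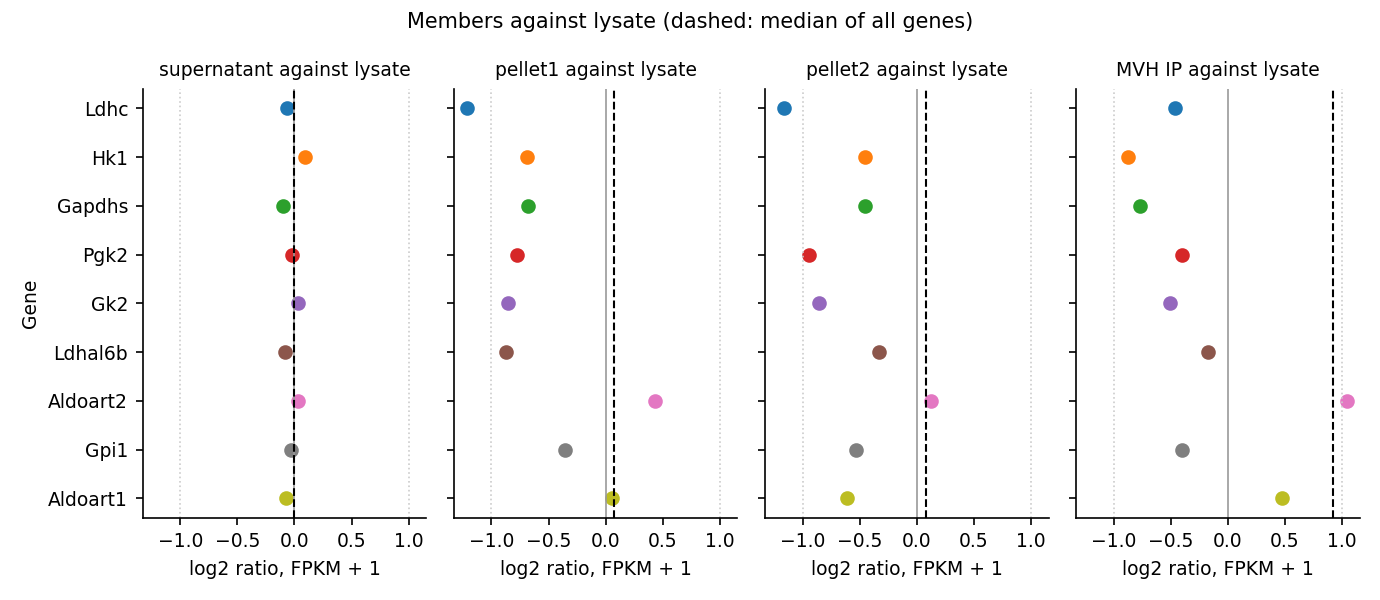
Log2 ratio of (FPKM + 1) to lysate for each member, 1 point per gene, in supernatant, pellet1, pellet2 and MVH IP, with dashed lines at the median of all genes and dotted lines at 2-fold. Ldhc passes 2-fold in both pellets, and Aldoart2 is the 1 member above it in MVH IP.

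Separately scaled tables gave another picture for MVH IP and lysate. They list 7 of the 9 members in both, and all 7 were above lysate there, from 0.44 (Gapdhs, 412 and 303 FPKM) to 2.29 (Aldoart2, 208 and 41.6). Ldhc was at 2901 and 1335 FPKM (1.12) and Gpi1 at 153 and 39.6 (1.93), and 5 of the 7 (Pgk2, Gapdhs, Ldhc, Gpi1 and Gk2) were of the opposite sign to the joint table. Of these 7, 4 passed 2-fold, where 78.9% of 3806 genes did and 0.473% were lower. Their median was 1.12 against 2.03 for all genes, so 6 of 7 again lay below the median. Hk1 and Ldhal6b were not listed for MVH IP in this table, though the joint table gives 359.9 and 275 FPKM. Of 709 genes at 200 FPKM or more in MVH IP of the joint table, 34.1% were likewise unlisted, against 7.13% of 421 in lysate.

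Against pellet2, 7 members were above 0 and 2 below. Aldoart1 was the 1 past 2-fold, at 86.8 against 40.5 FPKM (log2 1.08), where 39.9% of 13808 genes were higher and 5.78% lower. Aldoart2 followed at 0.91, Ldhc at 0.70, Pgk2 at 0.54 and Gk2 at 0.35. Hk1 was at -0.42 and Gapdhs at -0.31. All genes had a median of 0.79 and the members one of 0.35. Centred, 0 members were higher and 2 lower, where 14.2% and 13.7% of genes were.

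The authors' deposited table gives Cuffdiff tests of each of 10 pairs of conditions. Lysate, supernatant, pellet1 and pellet2 had 1 library each, so for these the tests had no spread between replicates to draw on. Of 90 member tests, 0 had a q-value under 0.05 and 0 an unadjusted p under 0.05 in the authors' deposited table, where 2.71% of 102558 tests of all genes had such a q, and 7.16% of those of lysate and MVH IP. The lowest p in the authors' deposited table was 0.0514, for Aldoart2 in lysate and MVH IP, with a q of 0.371. A p that misses the threshold does not show that levels were equal.

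The rest of the pathway was described from lists of 51 genes, of which 36 passed the filter in MVH IP against lysate. Of these, 13 were at least 2-fold higher and 4 lower, with a median of 0.39, between those of the members and of all genes. After centring, 4 were higher and 12 lower. Over all genes 47.3% were higher and 7.53% lower, and 18.7% and 20.6% after centring. Somatic isozymes were among the higher, but not all were. In the list of other isozymes and the rest of the pathway, 6 of 16 genes were higher and 2 lower, and after centring 2 and 7. Those not past 2-fold included Aldoa (log2 0.88), Pkm (0.30), Ldha (-0.50) and Eno1 (-0.54). Hk2, the muscle-type hexokinase, was at 13.1 against 2.66 FPKM and Pgam1, the somatic phosphoglycerate mutase, at 31.4 against 7.26. Pgk1, the X-linked phosphoglycerate kinase, was at 29.4 against 8.95 and Ldhb, the heart-type lactate dehydrogenase, at 45.3 against 13.7. Bpgm, the bisphosphoglycerate mutase, was at 89.3 against 39.0 FPKM. After centring, Hk2 and Pgam1 stayed past 2-fold, while Pgk1, Ldhb and Bpgm did not (0.69, 0.74 and 0.26).

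Of 8 genes listed under sugar and lactate transport 3 were higher and 2 lower, where 47.3% and 7.53% of all genes were. Of 7 listed as regulators, which include pyruvate dehydrogenase subunits, 4 were higher and 0 lower. After centring, 2 of the transport list were higher and 3 lower, and 0 of the regulator list higher and 1 lower, where 18.7% and 20.6% of all genes were. The lactate and glucose transporters Slc16a1 and Slc2a8 were higher, at 14.0 against 5.12 and 24.3 against 5.34 FPKM, and Slc16a8 was at 5.38 but listed at 0 in lysate. Pfkfb1 and Pfkfb2, which set the level of a glycolysis activator, were at 6.75 against 1.60 and 113 against 37.7. The pyruvate dehydrogenase subunits Pdha1 and Pdha2, the latter of the testis, were at 5.64 against 1.33 and 319.97 against 104. The 4 lower genes were Pfkp, a phosphofructokinase (14.6 against 44.7), Eno3, an enolase (13.9 against 29.5), Slc2a3, a glucose transporter (158 against 351), and Slc2a5, a fructose transporter (42.5 against 118). In the authors' deposited table, 5 of 308 completed tests of the listed genes had a q under 0.05 and all were of Pfkfb2, with q = 4.09e-06 in lysate and MVH IP.

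Of the pathway genes, pellet1 had 4 of 36 above lysate by 2-fold and 9 below, pellet2 had 0 of 37 above and 6 below, and supernatant had 1 of 37 above and 0 below. The shares of all genes above and below were 16.8% and 9.41% in pellet1, 12.5% and 7.21% in pellet2, and 0.751% and 1.46% in supernatant.

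Markers of other testis cells also differed in MVH IP. Summed FPKM of the 9 Sertoli markers found was 302 in MVH IP, and was 66.0 in lysate and 75.5 in supernatant, with 23.4 and 31.5 in the pellets, with Amh listed at 0 in MVH IP. The 8 spermatogonial markers summed to 70.9 in MVH IP and 16.8 in lysate, with Gfra1 and Nanos3 listed at 0 in MVH IP. The 6 Leydig markers summed to 213 and 284, the 8 blood, vessel and peritubular markers to 28.0 and 72.5, and the 9 pachytene spermatocyte markers to 751 and 973. Some markers went against these sums. Hsd3b1 was the Leydig marker that was higher in MVH IP (47.7 against 15.4 FPKM). Acta2, Myh11 and Cdh5 of the second list were higher too. Hba-a1 fell most in FPKM (8.91 against 45.2) and Hbb-b1 most in ratio (0.0012 against 14.3). Of the pachytene markers, Sycp1, Sycp3, Hormad1, Dmc1 and Tex101 were higher. Hspa2 fell most in FPKM (335 against 520) and Piwil1 most in ratio (36.8 against 106). The part of other testis cells in the higher Hk2, Pgk1 and Ldhb was not tested.

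Ratios of a member to its counterpart within a condition do not depend on a scaling factor common to all genes. Ldhc exceeded Ldha, the muscle-type lactate dehydrogenase (302.9 FPKM in lysate and 214 in MVH IP), by 11.5-fold in lysate, 10.7-fold in supernatant, 10.9-fold and 12.3-fold in the pellets and 11.9-fold in MVH IP. The ratio stayed within this range at every step. Pgk2 exceeded Pgk1 by 51.4-fold in lysate, 60.3-fold in supernatant, 27.6-fold and then 18.1-fold in the pellets and 11.8-fold in MVH IP, falling at each step after supernatant. Of the Pgk1 words, 68.2% occur in other genes' transcripts, so its level is uncertain, and the separate MVH IP table gives 21.5-fold in place of 11.8-fold.

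Ldhc exceeded Ldhb by 230-fold to 255-fold in the first 4 conditions and by 56.0-fold in MVH IP. The separately scaled tables give 202-fold in lysate and 206-fold in MVH IP, so the lower ratio in MVH IP is in the joint table only. Hk1 exceeded Hk2 by 176-fold to 317-fold in those 4 and by 27.5-fold in MVH IP. Aldoart2 was 1.13-fold to 1.38-fold the level of Aldoa in all 5, with Aldoa at 98.7 FPKM in lysate and 183 in MVH IP. The separate lysate table gives 0.813. Of the 36-base words, 37.4% of those of Ldhb, 29.4% of Ldha and 27.5% of Aldoa occur in other genes' transcripts, so these levels are uncertain. With words of 75 bases the shares were 16.7%, 5.23% and 1.49%. Aldoart2 to Aldoart1 ran from 1.79 in lysate to 3.01 in pellet2. Gapdh, the somatic counterpart of Gapdhs, was listed at 0.296 FPKM in lysate and at 0 in the other 4 conditions, and 83.7% of its words occur in transcripts of 297 other genes, so no ratio is given. Gk, listed as Gyk, was at 0.18 FPKM in lysate and 0.16 in MVH IP, below the filter, but at 6.89 in the separate MVH IP table.

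**Figure D3:**
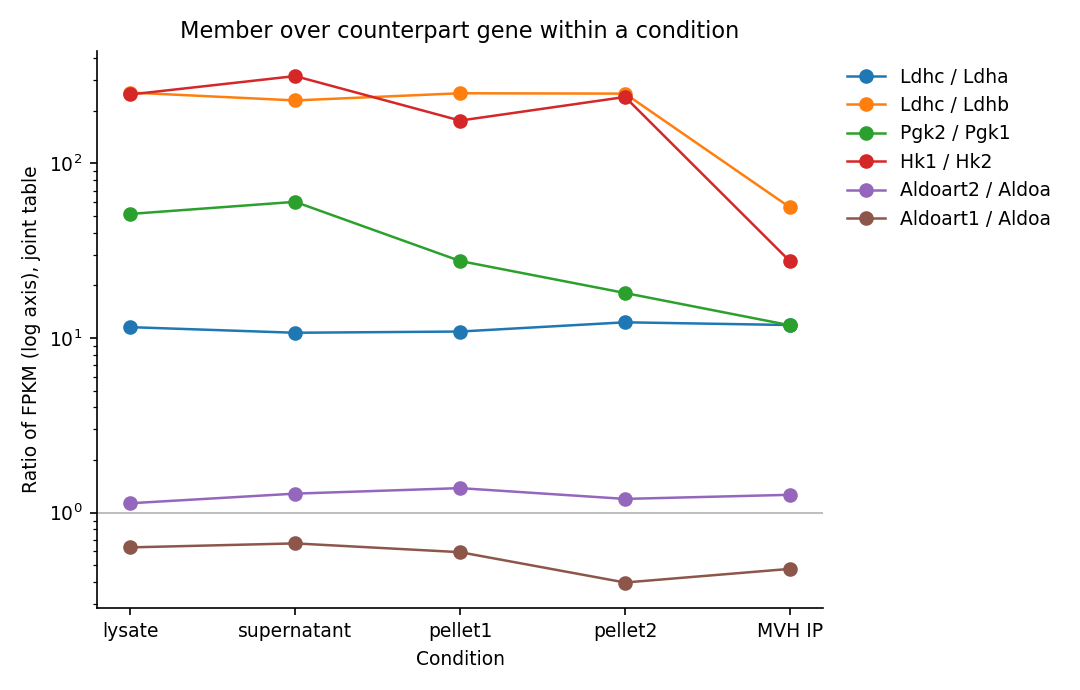
Ratio of the FPKM of a member to that of a counterpart gene within each of 5 conditions (log axis), 1 value per point. Ldhc to Ldha stays between 10.7 and 12.3, while Pgk2 to Pgk1 goes from 51.4 in lysate to 11.8 in MVH IP.

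Some members resembled each other across the 4 ratios to lysate. By root mean square distance in log2 units, Pgk2 and Gk2 were closest (0.08), followed by Gapdhs and Hk1 (0.11), and Ldhc and Aldoart2 were farthest apart (1.29). Among 8917 genes averaging at least 5 FPKM, the closest to Pgk2 were Hn1 (0.06), Slc22a16 (0.07) and Gna13 (0.07). The closest to Gapdhs were Prm1, the protamine of sperm chromatin (0.06), 4932438A13Rik (0.06) and Usp4 (0.07). Nearest to Ldhc were 4930511M11Rik (0.07), Hfm1, a meiotic helicase (0.08), and Ldha (0.08). The distances are over 4 ratios that share lysate.

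The sorted spermatids, in which the granule is found, listed 8 of the 9 members in their own table, scaled apart. Ldhc was at 1838 FPKM, second of 4956 listed genes, and Hk1 at 648, 27th. Gk2 was at 177, Gapdhs at 176, Pgk2 at 120.5, Aldoart2 at 41.0, Gpi1 at 27.0 and Aldoart1 at 19.3. Ldhal6b was not listed. The Hk1 interval ends at 61803169 in this table, inside that of the joint table, so the models differ.

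Against lysate in its separate table, Hk1 was higher in round spermatids, at 648 against 275 FPKM (log2 1.24), the 1 call among 8 members, where 22.6% of 4105 genes were higher and 3.61% lower. With the lysate value of the joint table, 661, the Hk1 ratio was -0.03, so its call rests on the table. Gk2 stood at 0.54 and Ldhc at 0.46. Gapdhs was at -0.78, Pgk2 at -0.58, Gpi1 at -0.53, Aldoart1 at -0.36 and Aldoart2 at -0.02. Their median was -0.19, against 0.31 for all genes. Centred, 0 members were higher and 1 lower, where 15.2% and 8.04% of genes were.

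MVH IP exceeded round spermatids for all 7 members listed in both tables, with 5 past 2-fold, where 75.4% of 3855 genes were higher and 0.545% lower. The ratios were lowest for Gk2 (0.07) and Ldhc (0.66) and highest for Aldoart2 (2.31) and Gpi1 (2.46). Pgk2 was at 1.24 and Gapdhs at 1.23. The median of all genes was 1.85, and 4 of the 7 lay below it. Centred on it, 0 members were 2-fold higher and 2 lower, where 20.3% and 21.5% of genes were.

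In the cells labelled hetMIWI, Piwil1, the gene of MIWI, was at 7.79 FPKM against 5.01 in the other round spermatids. The latter value lies at the 5 FPKM floor and the tables were scaled apart, so whether its level differed cannot be told. Of 3187 genes listed there, Ldhc at 2135 ranked 6th, with Gk2 at 345, Pgk2 at 192, Gapdhs at 156, Aldoart2 at 69.1, Aldoart1 at 33.3 and Gpi1 at 19.7. Hk1 was not listed, as were 44.9% of the 156 genes at 200 FPKM or more in round spermatids.

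None of the 7 members shared by the 2 spermatid tables passed 2-fold, where 12.7% of 2536 genes were higher and 10.5% lower in the cells labelled hetMIWI. Gk2 came nearest, at 345 against 177 FPKM (log2 0.96). Aldoart1, Aldoart2 and Pgk2 were at 0.75, 0.74 and 0.67, Ldhc at 0.22, Gapdhs at -0.17 and Gpi1 at -0.44. The 4 members with 1 exon ranged from 0.67 to 0.96 and the 3 with several from -0.44 to 0.22. There was 1 library in the hetMIWI group and size selection in 1 of the 2 others. In every other comparison the ranges overlapped, as in round spermatids against lysate (-0.58 to 0.54 and -0.78 to 1.24). The split by exons was not made over all genes, so it is not known whether it is particular to the members. The median of all genes was 0.43 and that of the members 0.67.

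**Figure D4:**
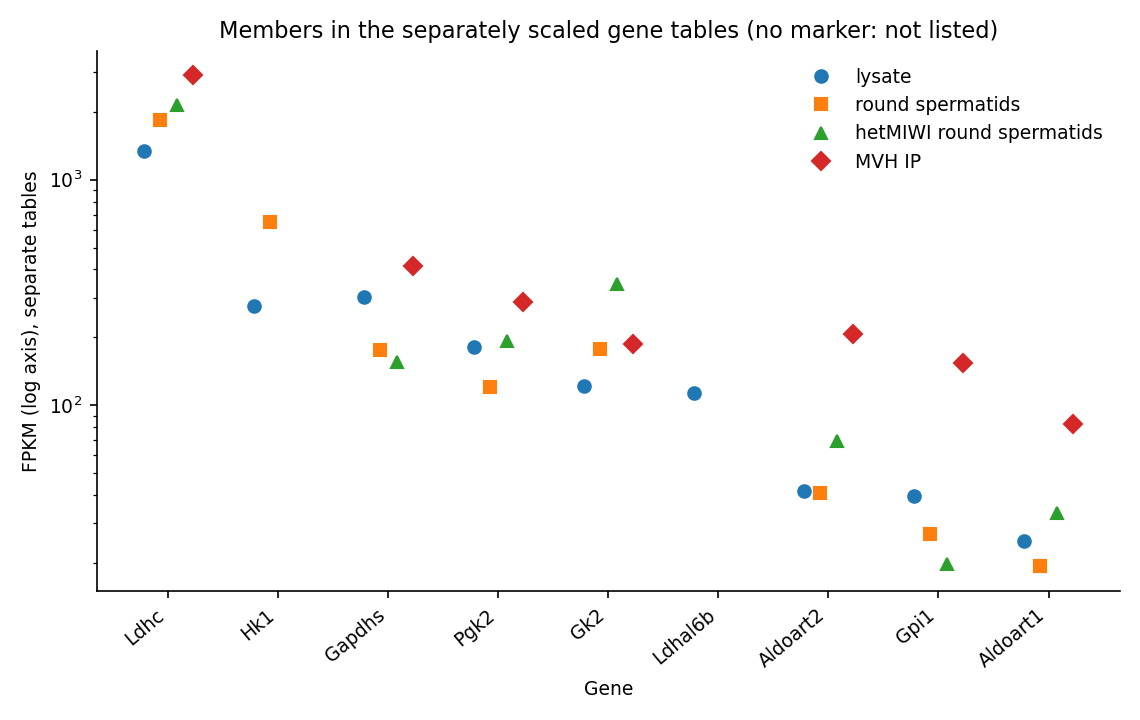
FPKM of the members (log axis) in the separately scaled tables of lysate, round spermatids, hetMIWI round spermatids and MVH IP, 1 deposited value per point and no point where a gene is not listed. Ldhc is highest in each table, and Hk1, at 648 FPKM in round spermatids, is not listed for MVH IP.

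Within these tables Ldhc exceeded Pgk2 by 15.3-fold in round spermatids, 11.1-fold in the cells labelled hetMIWI, 10.2-fold in MVH IP and 7.39-fold in lysate. Ldhc to Ldha was 6.94 in round spermatids, 5.33 in the cells labelled hetMIWI and 10.3 in lysate.

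In a further deposited table that sets MVH IP RNA beside small RNA, whose RNA column has no stated unit, the members came in the order Ldhc (953), Gapdhs (164), Hk1 (154), Pgk2 (149), Aldoart2 (102), Ldhal6b (99.6), Gk2 (93.6), Aldoart1 (30.2) and Gpi1 (21.2). Ldhc was first and Gpi1 last, as in MVH IP of the joint table.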

How the data were processed

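RNA-seq values for 5 conditions of the chromatoid body purification and for round spermatids were taken as the authors deposited them. TopHat and Cuffdiff were used on build mm9, per the submitters' processing notes, with versions and scaling not given in the sources used here. Values were deposited as FPKM per the file headers, in 1 joint table and in separate gene tables listing genes from 5 FPKM upward. The p-values and q-values are the authors' Cuffdiff output, per the file headers. The RNA column of the table beside small RNA is a deposited score with no stated unit; its small RNA column (1) was not used. Where pairs of conditions gave a feature different values (26 features, 0 members) the highest was used.

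Log2 ratios of (FPKM + 1) were computed for genes with a mean of at least 1 FPKM, and 2-fold was called; the log2 scale understates changes of low genes. The planned test on single libraries could not be made because values are pooled. The ratio code was tested on simulated data. All 9 members are named, with 7 counterpart genes and the listed pathway genes past 2-fold in MVH IP against lysate, except 1 that is not reported here. The members and lists were chosen with earlier results of these data known. Sequences are from RefSeq (GRCm38.p6) and GENCODE; coordinates count from 1. Python 3.11.15, numpy 2.4.6, pandas 2.3.3 and matplotlib 3.10.9 were used. Alternatives were other pseudocounts, filters, scalings and tables.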

Additional observations from a re-analysis of the deposited data

How the results depend on the processing

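No paired analysis was possible because each condition has 1 pooled value and the columns carry no replicate number, and leaving out replicates could not be run for the same reason. A pseudocount of 0.1, no filter, or a mean of 5 FPKM kept every member's direction and side of 2-fold. Scaling and the choice of table did not. In MVH IP against lysate the members' median was -1.32 when centred on all genes, -1.41 with upper quartile scaling and 1.12 in the separate tables (Ldhc 1.12, Gpi1 1.93, with Pgk2, Gapdhs and Gk2 also above 0 there), with 0, 0 and 4 members higher, and 7 lower under either scaling. In pellet1 4 members were lower with upper quartile scaling, as were 1927 of 12904 genes. In pellet2 2 were lower when centred (1101 of 12941 genes) and 3 with upper quartile scaling (1296 genes). In MVH IP against pellet2 0 were higher and 2 lower under both scalings. In MVH IP against round spermatids the median was -0.61 centred and -0.79 with upper quartile scaling, with 0 higher and 2 lower under both; Pgk2 was at -0.61 and -0.79, Gapdhs at -0.63 and -0.80, Ldhc at -1.20 and -1.38 and Gk2 at -1.78 and -1.95. In round spermatids against lysate 0 were higher under both scalings and with the joint table's lysate, where 1, 3 and 5 were lower; with that lysate the median was -1.53 and Hk1 was at -0.027. The shift in the scalings follows from subtracting a value common to all genes. For the tables, the cause was not tested. Over all genes, the counts higher and lower in MVH IP against lysate, 6554 and 1043, were 2587 and 2852 centred, 2930.0 and 2770.0 with upper quartile scaling and 3002 and 18 in the separate tables. Against pellet2 the counts of 5513 and 798 became 1958 and 1888, or 2356 and 1609. Against round spermatids 2905 and 21 became 781 and 829, or 688 and 914. Counts for round spermatids and lysate, 927 and 148, were 413 and 1790.0 with the joint lysate and 444 and 621 with upper quartile scaling. For hetMIWI the 323 and 267 became 91 and 463 when centred. A mean of 5 FPKM cut lower counts of MVH IP to 451 against lysate and 236 against pellet2, and of supernatant from 186 to 108, pellet1 from 1214 to 705 and pellet2 from 933 to 441, by testing fewer genes; the pellets differed in 229 and 341 genes in place of 762 and 856. A pseudocount of 0.1 raised supernatant counts from 96 and 186 to 241 and 358.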
